A study of Mus musculus with 19 samples.

Results

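The genes described here are 10 markers of mural cells, the cells that wrap small brain vessels, followed across 19 bulk RNA-seq libraries of mouse medial prefrontal cortex. They were found by gene name in a count table of 57010 genes: Pdgfrb, Rgs5, Abcc9, Kcnj8, Notch3, Vtn and Cspg4, which mark pericytes (7 genes), and Acta2, Myh11 and Tagln, which mark vascular smooth muscle (3 genes). All 10 were in the table, and 9 passed the expression filter. Tagln did not. The libraries came from wild-type mice in 4 groups, and every mouse was gavaged for 8 days and injected intraperitoneally for 5 days. Controls (n = 4, numbered 1, 2, 4 and 5 in the labels) had saline by both routes. The LPS group (n = 5) had lipopolysaccharide, a bacterial cell wall component that provokes inflammation, injected at 1 mg/kg, with saline by gavage. The sedanolide group (n = 5) had sedanolide, a phthalide of celery, by gavage at 20 mg/kg, with saline injections. The co-treated group (n = 5) had both, and gavage began 3 days before LPS. The labels do not say that replicates are separate animals, so p-values measure the spread between these libraries, which may be technical.

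Pericytes sit on capillaries inside the basement membrane and contact the endothelium, while smooth muscle cells ring arterioles and set their diameter. Endothelial cells release PDGF-B, which binds the receptor encoded by Pdgfrb and is needed to recruit and keep pericytes, and endothelial Notch ligands signal to mural NOTCH3. Kcnj8 and Abcc9 encode the pore and the regulatory subunit of one ATP-sensitive potassium channel, whose opening hyperpolarises mural cells. In bulk tissue, fewer cells of a type and less RNA per cell cannot be told apart.

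RefSeq promoter sequences, matched by symbol, were searched for 7 of the genes. Myh11 and Tagln had no entry. Pdgfrb was left out of the search, so nothing is said here of its promoter. The 250 bases before the start are shown for Acta2, because this is the only one of the 7 with a CArG-like stretch, and for Rgs5, Abcc9 and Kcnj8, because these 3 genes were higher in both LPS comparisons below. A CArG box, the motif bound by serum response factor in contractile genes, is CC, a run of A or T, then GG. The CArG-like form allows any base at 1 of the 6 middle positions, and both were searched on both strands, the strict form being contained in the looser one. None of the 7 promoters held the strict form, which was in 1.47% of 32851 promoters of this length. Acta2 held 2 CArG-like stretches, at -84 to -75 and at -34 to -25 from the start, in capitals below, and 8.59% of promoters held at least 1. The match describes letters only. The coordinates are those of GRCm38.p6: Acta2 chr19:34255374-34255623 (minus strand), Rgs5 chr1:169655251-169655500 (plus strand), Abcc9 chr6:142702275-142702524 (minus strand) and Kcnj8 chr6:142571615-142571864 (minus strand).
Acta2: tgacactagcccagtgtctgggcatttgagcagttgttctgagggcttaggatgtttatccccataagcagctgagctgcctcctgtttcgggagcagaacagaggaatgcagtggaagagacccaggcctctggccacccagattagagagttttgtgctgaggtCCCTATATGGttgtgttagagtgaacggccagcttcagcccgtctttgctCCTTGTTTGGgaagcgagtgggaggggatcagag
Rgs5: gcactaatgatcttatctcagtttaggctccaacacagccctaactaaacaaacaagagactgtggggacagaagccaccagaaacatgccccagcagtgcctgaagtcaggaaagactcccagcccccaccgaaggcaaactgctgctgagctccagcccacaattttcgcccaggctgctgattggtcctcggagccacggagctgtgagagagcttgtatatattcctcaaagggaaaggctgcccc
Abcc9: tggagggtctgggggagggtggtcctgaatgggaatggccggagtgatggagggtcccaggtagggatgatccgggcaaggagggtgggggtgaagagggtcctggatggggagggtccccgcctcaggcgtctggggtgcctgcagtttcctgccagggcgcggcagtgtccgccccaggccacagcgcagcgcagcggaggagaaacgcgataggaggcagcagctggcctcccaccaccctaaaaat
Kcnj8: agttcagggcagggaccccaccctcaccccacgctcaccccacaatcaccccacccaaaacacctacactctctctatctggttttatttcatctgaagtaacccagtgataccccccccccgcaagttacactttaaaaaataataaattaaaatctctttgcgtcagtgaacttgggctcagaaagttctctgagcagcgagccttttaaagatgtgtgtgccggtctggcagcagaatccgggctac

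Library totals ran from 19.1 M to 24.3 M counts, and a level in CPM is a gene's count divided by its library's scaled total in M (mega). The libraries differed in olfactory bulb transcripts. In 7 libraries Cdhr1, a gene of bulb projection neurons, was at or above 20 CPM (57.1 to 454 CPM): control 1 and 5, LPS 2, 3 and 4, and sedanolide 3 and 4. In the other 12, all 5 co-treated libraries among them, it was between 2.31 and 9.72 CPM. They are called bulb-rich and bulb-poor below. No co-treated library was bulb-rich, so within bulb-rich libraries no comparison with that group can be made. LPS replicate 2 stood apart in smooth muscle genes: its summed Acta2, Myh11 and Tagln level was 294 CPM, against 54.6 to 107 CPM in the other LPS libraries. Control replicate 2 had the highest pericyte sum of the controls (449 CPM, others 303 to 382 CPM). LPS 2 is bulb-rich and control 2 is bulb-poor.

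Ordered by level per kb of exon in the 4 controls, Vtn stood first at 55.4 ± 17.9 CPM per kb (SD), followed by Rgs5 (37.3 ± 8.32), Acta2 (22.7 ± 7.65), Pdgfrb (6.22 ± 1.23), Myh11 (3.79 ± 1.60), Notch3 (2.34 ± 0.58), Kcnj8 (1.87 ± 0.42), Cspg4 (1.66 ± 0.44), Abcc9 (1.21 ± 0.28) and Tagln (0.179 ± 0.013), all in CPM per kb. Neighbours in this order had overlapping control values except Acta2 and Pdgfrb, and Abcc9 and Tagln. Tagln, an actin-binding protein of smooth muscle, had only 3 to 15 counts in each library (0.124 to 0.652 CPM) and was not tested. In the GRCm38 annotation 67.9% of its exon bases are shared with exons on the opposite strand (Gm48529 and Pcsk7). Because the strand setting of the counting is not given, even these counts cannot be assigned to Tagln alone. Whether reads in the shared bases were counted for Tagln, left out or given to another gene is not known. Its level and its last place in the order may thus be too low or too high, and do not show that Tagln was barely expressed. The same share was 6.0% for Notch3, 1.9% for Abcc9 and 0 for the other 7. The tests of smooth muscle genes therefore rest on Acta2 and Myh11, while the summed level and the likeness ranking below include Tagln. The pericyte label rested on 7 detected genes.

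**Figure D1:**
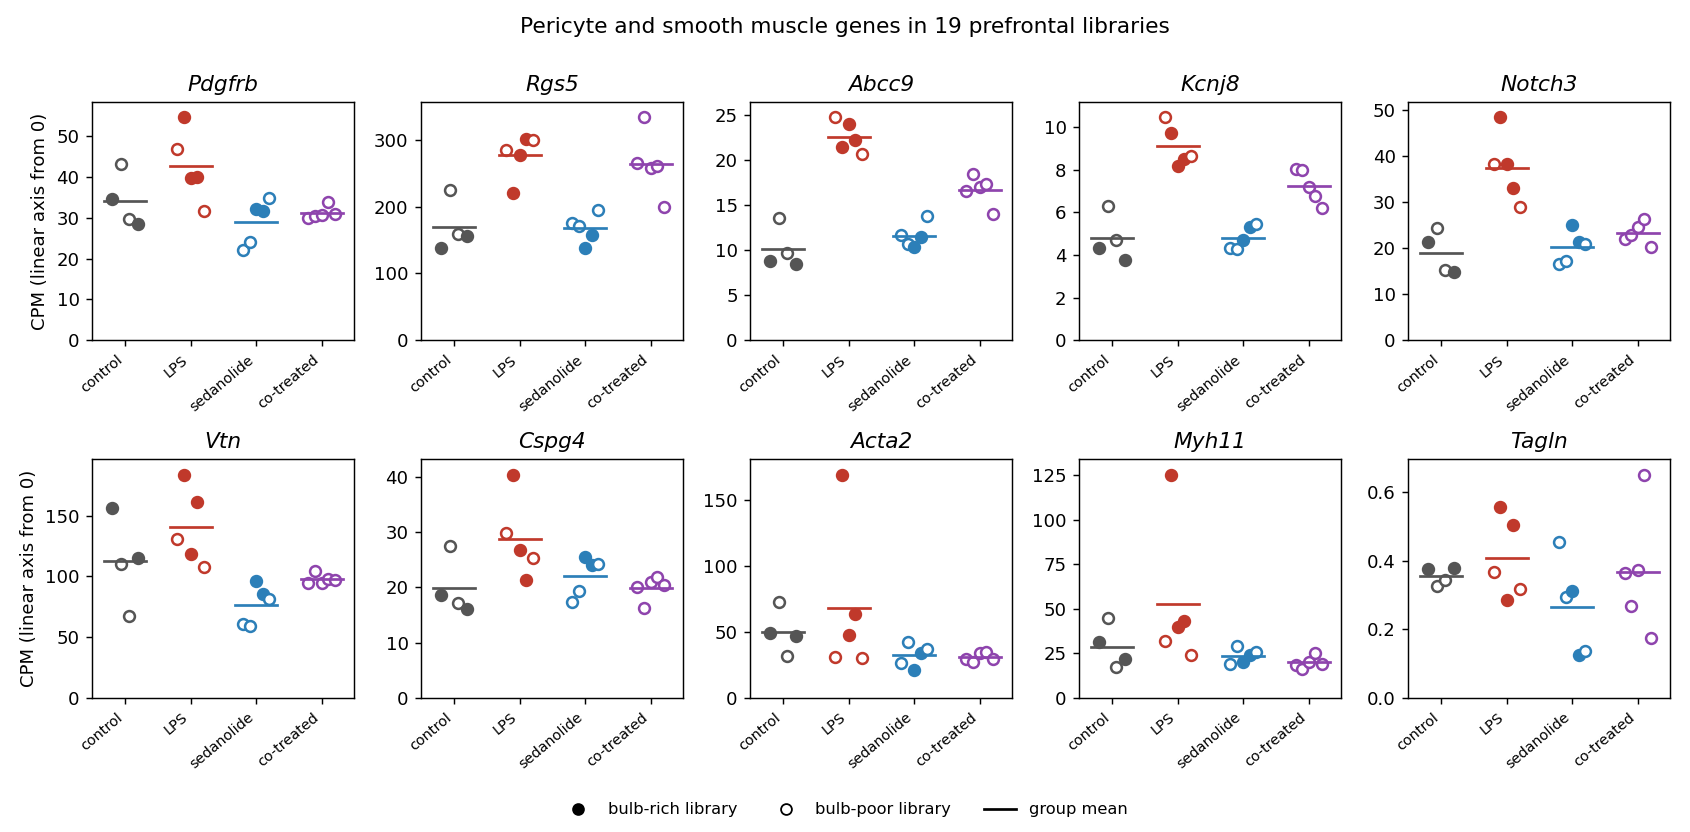
CPM of each gene (vertical axes, linear and starting at 0) in every library of the 4 groups, with filled points for bulb-rich libraries, open points for bulb-poor ones and a line at each group mean. The LPS points of Abcc9, Kcnj8 and Notch3 all lie above the control points, and LPS replicate 2 lies far above the rest for Acta2 (169 CPM) and Myh11 (125 CPM).

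LPS against control asks how the mural genes stood after the endotoxin alone. Of the 7 pericyte genes 4 were higher and none lower, namely both channel subunits Abcc9 and Kcnj8, the receptor Notch3, and Rgs5. Of the 2 tested smooth muscle genes none was called. Over all 17757 genes tested, 8.47% were called higher. The median log2 change of the 9 tested genes was 0.73, beside 0.00 for all genes tested. As a count over both directions, 7 of the 9 had an unadjusted p below 0.05, as did 24.2% of all genes tested.

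Abcc9, the regulatory channel subunit (chromosome 6, 142533588 to 142648041 in the deposited coordinates, whose build is not given), was at 8.83, 13.6, 9.70 and 8.46 CPM in controls 1, 2, 4 and 5. In LPS 1 to 5 it was at 24.8, 21.4, 24.0, 22.2 and 20.7 CPM. The groups did not overlap, and the lowest LPS library was above control 2, the highest control. The log2 change was 1.18 (SE 0.13, adjusted p = 2.99e-06, edgeR). Kcnj8, the pore subunit, lies beside it on the same strand (chromosome 6, 142510563 to 142517340) and had 4.34, 6.28, 4.70 and 3.76 CPM in controls and 10.5, 9.70, 8.15, 8.48 and 8.62 CPM in LPS 1 to 5. Its groups did not overlap either, and the log2 change was 0.95 (SE 0.14, adjusted p = 9.26e-05).

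Notch3, the mural Notch receptor (chromosome 17, 32339794 to 32385826), was at 21.3, 24.3, 15.2 and 14.8 CPM in controls and at 38.1, 48.4, 38.3, 33.0 and 28.8 CPM in LPS libraries. Here too every LPS library was above every control, with LPS 2 the highest and LPS 5 the lowest. The log2 change was 1.01 (SE 0.17, adjusted p = 0.000271). Rgs5, a regulator of G protein signalling used as a pericyte marker (chromosome 1, 169483070 to 169523382), had 138, 225, 159 and 157 CPM in controls and 285, 220, 277, 301 and 299 CPM in LPS libraries. Its groups overlapped, because LPS 2 lay below control 2. The log2 change was 0.73 (SE 0.15, adjusted p = 0.00261). Ranges that do not overlap upward were thus seen for 3 of the 9, and for 7.39% of all genes tested.

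The other pericyte genes were not called. Cspg4, the NG2 proteoglycan that oligodendrocyte precursors also make, went from 19.8 ± 5.22 CPM (n = 4) to 28.7 ± 7.16 CPM (n = 5), a log2 change of 0.56 (SE 0.18, adjusted p = 0.0517). Pdgfrb, the PDGF receptor, had 34.1 ± 6.73 and 42.6 ± 8.64 CPM (log2 change 0.35, SE 0.16, adjusted p = 0.175). Vtn, the adhesive glycoprotein vitronectin, had 112 ± 36.4 and 140 ± 31.4 CPM (log2 change 0.35, SE 0.19, adjusted p = 0.286). For all 3 the control and LPS ranges overlapped.

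Acta2, smooth muscle alpha-actin, was at 48.8, 72.3, 31.6 and 46.6 CPM in controls and at 30.8, 169, 47.8, 63.7 and 30.4 CPM in LPS 1 to 5. Myh11, smooth muscle myosin heavy chain, was at 31.1, 45.0, 17.5 and 21.7 CPM in controls and at 32.1, 125, 39.5, 42.9 and 23.8 CPM in LPS libraries. In both genes LPS 2 lay far above the rest, and the other LPS values lay within or near the control range. The log2 changes were 0.48 for Acta2 (SE 0.40, adjusted p = 0.507) and 0.89 for Myh11 (SE 0.38, adjusted p = 0.151), and they were -0.18 and 0.29 without LPS 2 and -0.77 and -0.16 in bulb-poor libraries. LPS 2 also had 1405 CPM of summed fibroblast markers (10 genes), while LPS 4 had 1515, control 2 had 1401 and control 1 had 1337 CPM. The collagens Col1a2 and Col3a1 of that list reached at most 60.1 and 20.4 CPM in LPS libraries, so most of these sums came from other genes of the list, which includes Ptgds. Over the LPS libraries the fibroblast sum ran from 161 to 1515 CPM, over controls from 165 to 1401 CPM, and no marker of the list was at 0 in all libraries of a group. Its part in the smooth muscle values was not tested.

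The 4 calls held whichever of the 19 libraries was left out. In bulb-poor libraries alone (2 controls and 2 LPS libraries) Rgs5 was no longer called (log2 change 0.61, adjusted p = 0.0931), while Abcc9, Kcnj8 and Notch3 were. With the bulb index as a covariate Vtn (adjusted p = 0.0337) and Cspg4 (0.0368) were called as well, which makes 6.

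**Figure D2:**
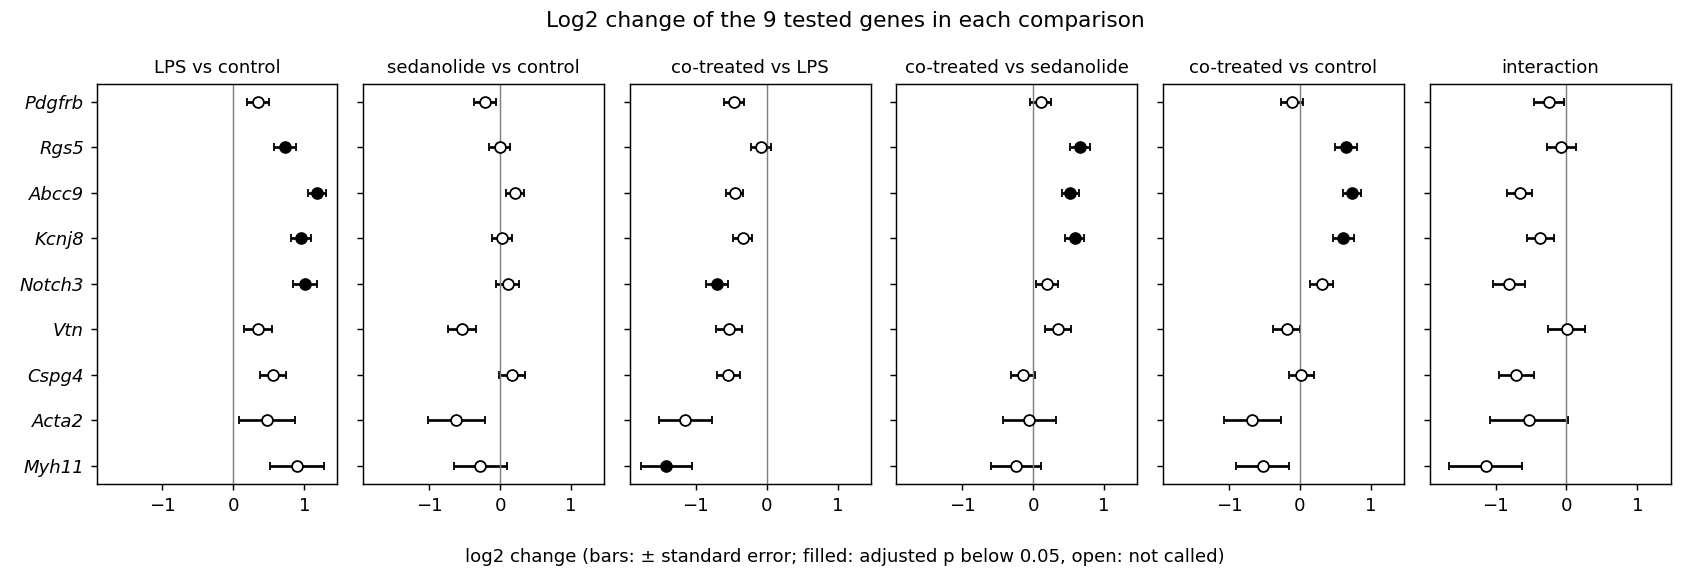
Log2 change (horizontal axes) of the 9 tested genes in each comparison, with bars of 1 standard error and filled points where the adjusted p was below 0.05. Abcc9, Kcnj8 and Rgs5 are filled on the right of 0 in all 3 panels that set an LPS-injected group against one without LPS, and Acta2 and Myh11 have the widest bars.

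Sedanolide against control asks what the compound did without LPS. None of the 9 genes was called with edgeR or with DESeq2, 1 had an unadjusted p below 0.05, as did 24.9% of all genes tested, and 5.31% of those were called in either direction. Vtn was that gene, at 60.9, 59.1, 95.9, 85.2 and 81.7 CPM in sedanolide 1 to 5 against 157, 110, 67.6 and 116 CPM in controls. The bulb-rich sedanolide 3 and 4 were its highest values, and the groups overlapped. Its log2 change was -0.54 (SE 0.19, adjusted p = 0.0971), and without control 4 it was -0.71 (adjusted p = 0.0217). Abcc9 had 11.6 ± 1.36 CPM (n = 5) against 10.1 ± 2.35 CPM (n = 4), a log2 change of 0.21 (SE 0.13, adjusted p = 0.322), and it was called only without control 2 (0.39, adjusted p = 0.0452). Rgs5 differed by -0.01 (SE 0.15) and Kcnj8 by 0.03 (SE 0.14) on the log2 scale.

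Co-treated against LPS asks how the genes stood when sedanolide was given with LPS. Of the 9 genes 2 were lower, Notch3 and Myh11, beside 1.68% of all genes tested. All 9 log2 changes were below 0 (median -0.53, and -0.01 for all genes tested), and 8 had an unadjusted p below 0.05, as did 19.8% of all genes tested. No gene was called without LPS 2, LPS 3 or co-treated 1, 2, 3 or 5, and 4 were called without LPS 5.

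Notch3 was at 22.0, 22.9, 24.5, 26.2 and 20.2 CPM in co-treated 1 to 5, every one below the lowest LPS library (28.8 CPM). The log2 change was -0.70 (SE 0.15, adjusted p = 0.0221). It was called in 13 of 19 fits without 1 library, and not without LPS 2 (-0.59, adjusted p = 0.0775), LPS 3 (0.0515) or co-treated 1 (0.0669), 2 (0.0574), 3 (0.0536) or 5 (0.076). In bulb-poor libraries the change was -0.54 (adjusted p = 0.261), and with the bulb index as covariate -0.57 (adjusted p = 0.129).

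Myh11 was at 18.7, 16.2, 20.1, 25.2 and 19.1 CPM in co-treated libraries, of which co-treated 4 overlapped the lowest LPS library (23.8 CPM). The log2 change was -1.41 (SE 0.36, adjusted p = 0.0499), just under the threshold, and without LPS 2 it was -0.81 (adjusted p = 0.14). It was called in 4 of 19 fits without 1 library (control 2, control 4, LPS 1 or LPS 5), and not with RLE factors (adjusted p = 0.0533), upper-quartile factors (0.0544) or no expression filter (0.135). The bulb-poor value was -0.50 (adjusted p = 0.577). Acta2 had 29.7, 27.4, 33.6, 34.9 and 29.6 CPM in co-treated libraries, a log2 change of -1.14 (SE 0.38, adjusted p = 0.122), which was 0.01 in bulb-poor libraries. The fibroblast sum was 196 to 427 CPM in co-treated libraries and its part in these values was not tested.

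Ranges without overlap, with every co-treated library below every LPS library, were seen for Abcc9, Kcnj8, Notch3 and Vtn, beside 4.47% of all genes tested. Abcc9 was at 16.6, 18.5, 17.0, 17.4 and 14 CPM in co-treated libraries, between the control and LPS values (log2 change -0.45, SE 0.12, adjusted p = 0.0579). Kcnj8 was at 8.05, 7.97, 7.20, 6.78 and 6.19 CPM, close below the lowest LPS library at 8.15 CPM (log2 change -0.34, SE 0.13, adjusted p = 0.171). Vtn was at 94.6, 104, 94.4, 98.3 and 97.3 CPM, a spread (coefficient of variation 4.12%) below that of the LPS group (22.4%), with a log2 change of -0.53 (SE 0.18, adjusted p = 0.13). All co-treated libraries were bulb-poor, whereas the LPS group mixed 3 bulb-rich libraries (Vtn mean 155 CPM) with 2 bulb-poor ones (119 CPM). Rgs5 had 264 ± 47.6 CPM against 277 ± 33.0 CPM (n = 5 each), a log2 change of -0.08 (SE 0.14, adjusted p = 0.771).

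Co-treated against sedanolide shows LPS in mice that all had the compound, and its groups share no library with those of LPS against control, though the spread was estimated from all 19 libraries. Of the 9 genes 3 were higher and none lower, again Rgs5, Kcnj8 and Abcc9, beside 5.09% of all genes tested. Rgs5 was at 266, 334, 258, 261 and 200 CPM in co-treated and at 175, 171, 138, 157 and 196 CPM in sedanolide libraries (log2 change 0.65, SE 0.14, adjusted p = 0.00576). Kcnj8 was at 4.33, 4.27, 4.69, 5.32 and 5.45 CPM in sedanolide libraries (log2 change 0.58, SE 0.13, adjusted p = 0.00899). Abcc9 was at 11.7, 10.7, 10.4, 11.5 and 13.8 CPM there (log2 change 0.52, SE 0.12, adjusted p = 0.0101). For all 3 genes the lowest co-treated library was above the highest sedanolide library, a pattern of 5.58% of all genes tested. The 3 calls were made in each of the 19 fits without 1 library. In bulb-poor libraries (3 sedanolide, 5 co-treated) they were made too, and Vtn was added (0.56, adjusted p = 0.0347).

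Co-treated against control shares the controls with LPS against control and the co-treated libraries with the last comparison. Abcc9 (0.73, SE 0.13, adjusted p = 0.0011), Rgs5 (0.65, SE 0.15, adjusted p = 0.0103) and Kcnj8 (0.61, SE 0.14, adjusted p = 0.00987) were higher on the log2 scale, beside 6.38% of all genes tested. Only Abcc9 had ranges without overlap (7.75% of all genes tested). In the 7 bulb-poor libraries of these groups none of the 3 was called: Abcc9 was at 0.51 (adjusted p = 0.0931), Rgs5 at 0.45 (0.164) and Kcnj8 at 0.39 (0.273). Kcnj8 was not called without control 5 (0.51, adjusted p = 0.0502), and Rgs5 not with the bulb index as covariate (0.46, adjusted p = 0.0578).

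The interaction, the sedanolide change with LPS minus that without it, was called for none of the 9 genes with edgeR (0.586% of all genes tested were called), while 4 had an unadjusted p below 0.05, as did 15.9% of all genes tested. It was -0.66 for Abcc9 (SE 0.18, adjusted p = 0.0989), -0.81 for Notch3 (SE 0.23, adjusted p = 0.109), -0.71 for Cspg4 (SE 0.25, adjusted p = 0.181) and -1.14 for Myh11 (SE 0.52, adjusted p = 0.292). DESeq2 called 2, Abcc9 (adjusted p = 0.0223) and Notch3 (0.0349). The same 2 genes were called without control 2, Abcc9 at -0.83 (adjusted p = 0.0076) and Notch3 at an adjusted p of 0.038, and Abcc9 was called with the bulb index as covariate (-0.73, adjusted p = 0.0294). For Rgs5 the interaction was -0.07 (SE 0.21) and for Vtn 0.00 (SE 0.26).

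Bulb content was set against the genes with an index, the mean log2 CPM of the bulb markers Eomes, Cdhr1, Doc2g and Shisa3, in a model that kept the groups. Of the 9 genes Vtn rose with the index and Rgs5 fell, while 31.3% of all genes tested were called in either direction. Calls were thus no more frequent among the 9 than over all genes tested. The slope of Vtn was 0.089 per log2 unit of index (SE 0.017, adjusted p = 0.000761). Its bulb-rich and bulb-poor means were 136 and 88.8 CPM in controls, 155 and 119 CPM in LPS, and 90.5 and 67.2 CPM in sedanolide libraries, higher in bulb-rich libraries in all 3 groups that had both. The slope of Rgs5 was -0.050 (SE 0.018, adjusted p = 0.0361), with bulb-rich and bulb-poor means of 147 and 192 CPM in controls, 266 and 292 CPM in LPS, and 147 and 181 CPM in sedanolide libraries.

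Neither slope was called within bulb-poor or bulb-rich libraries alone, and that of Rgs5 was lost in 7 of 19 fits without 1 library, namely without control 1 (adjusted p = 0.116) or 2 (0.101), LPS 2 (0.076) or 5 (0.0527), or sedanolide 3 (0.106), 4 (0.0579) or 5 (0.0517). Vtn was called in all 19. Notch3 was called without control 2 (slope 0.054, adjusted p = 0.0288), and Abcc9 with a linear index in place of the log2 one (adjusted p = 0.0451). Pdgfrb (0.019, SE 0.021), Cspg4 (0.009, SE 0.025), Notch3 (0.033, SE 0.021), Kcnj8 (-0.023, SE 0.019), Abcc9 (-0.034, SE 0.016), Acta2 (0.069, SE 0.058) and Myh11 (0.060, SE 0.053) were not called. Without LPS 2 the slopes of Acta2 and Myh11 were 0.013 and 0.0055. Along the same index, 5 of 6 olfactory ensheathing cell markers and 3 of 10 fibroblast markers rose, 6 of 7 cortical neuron markers fell, and none of 12 endothelial markers was called. Their part in the Vtn and Rgs5 slopes was not tested.

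**Figure D3:**
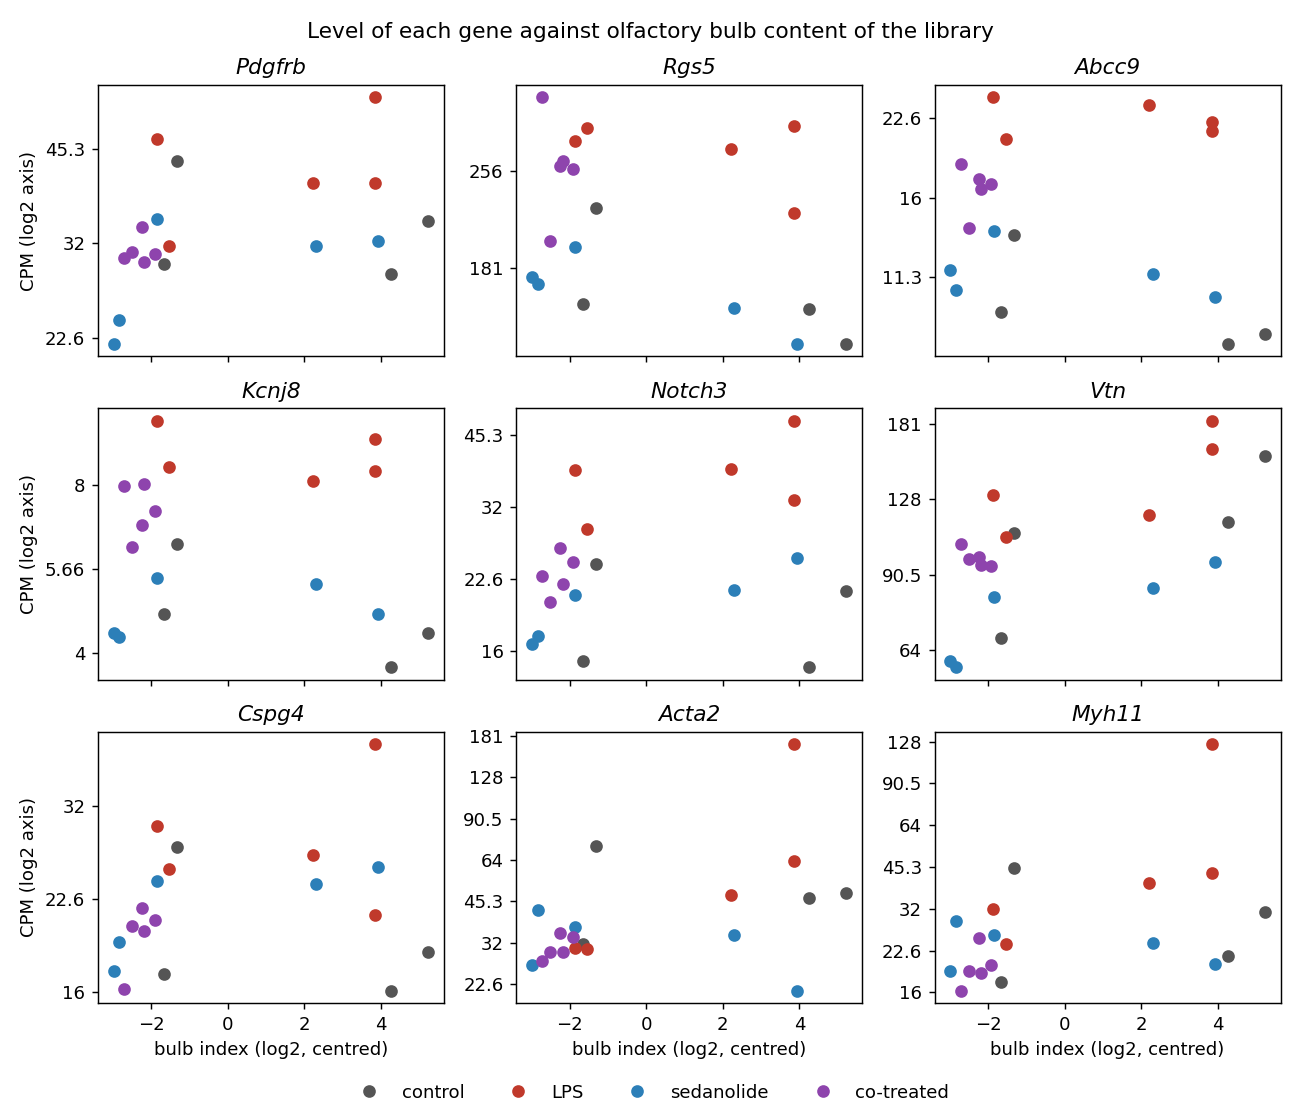
CPM of the 9 tested genes (vertical axes, log2 scale) against the centred bulb index of the library (horizontal axes, log2), coloured by group. The mean of Vtn is higher in bulb-rich than in bulb-poor libraries of control, LPS and sedanolide, although the bulb-rich LPS 3 (119 CPM) lies below the bulb-poor LPS 1 (131 CPM), and the co-treated libraries all lie at the left, with no bulb-rich library among them.

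With group means removed, correlations between the 9 genes over the 19 libraries ran from -0.297 to 0.949. They describe libraries that share depth and tissue content, and carry no test. Acta2 and Myh11 had the highest r, 0.949, and 0.897 without LPS 2. Pdgfrb went with Notch3 (r = 0.891) and Cspg4 (0.845), and Notch3 with Cspg4 (0.822). Abcc9 went with Rgs5 (0.796) and with Kcnj8 (0.783), whereas Rgs5 and Kcnj8 had r = 0.512, Rgs5 and Pdgfrb -0.043, and Rgs5 and Vtn -0.297. Kcnj8 had r = 0.652 with Pdgfrb, and Myh11 had r = 0.694 with Notch3 and 0.687 with Pdgfrb, values across the pairs named before. Rgs5, Abcc9 and Kcnj8 were called higher both in LPS against control and in co-treated against sedanolide. Notch3 was called in LPS against control and in co-treated against LPS, and Myh11 only in co-treated against LPS. Pdgfrb, Cspg4, Vtn and Acta2 were called in none of the 6 comparisons.

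**Figure D4:**
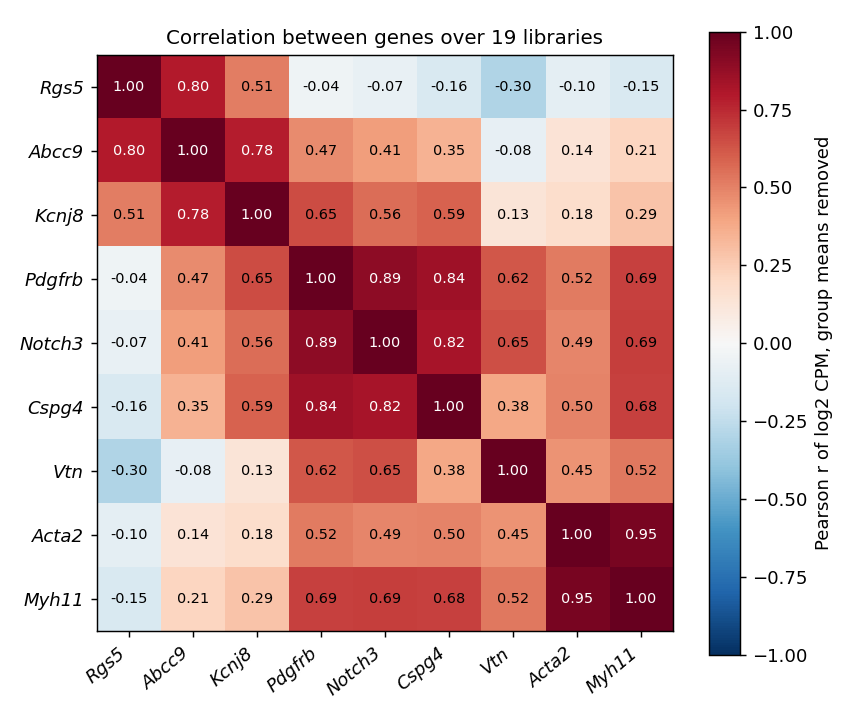
Pearson r between the 9 tested genes (rows and columns) over 19 libraries after group means were subtracted from log2 CPM. The highest r is that of Acta2 and Myh11 (0.949), and the lowest that of Rgs5 and Vtn (-0.297).

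Among 12568 genes ranked in the same way, those most like the mean of the 7 pericyte genes were Vcl (r = 0.944), Arhgef5 (0.929), Zcchc24 (0.921), Irf1 (0.917) and Itga5 (0.911), over 19 libraries. Those most like the mean of the 3 smooth muscle genes were Eln (0.947), which encodes elastin, Tpm2 (0.943), Myl9 (0.933), Mylk (0.901) and Lmod1 (0.896), and without LPS 2 these fell to between 0.799 and 0.903. With Tagln left out of the mean the first 5 were Myl9 (0.963), Fbln5 (0.948), Jph2 (0.945), Tinagl1 (0.944) and Lmod1 (0.939).

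Other genes of mural cells and their signals were read from fixed lists. In LPS against control 8.47% of all genes tested were called higher, the share to set beside the LPS counts of these lists. Of 18 other pericyte genes 6 were higher with LPS, among them Gper1 (0.94, SE 0.13, adjusted p = 4.94e-05), Ndufa4l2 (0.73, SE 0.15, adjusted p = 0.00257) and Atp13a5 (0.62, SE 0.13, adjusted p = 0.00339). In bulb-poor libraries, where fewer genes were called over all genes tested as well, 1 of the 18 was called. Of 18 other smooth muscle genes 1 was higher, Smtn, which encodes smoothelin (1.08, SE 0.25, adjusted p = 0.00557), and none was called in bulb-poor libraries. Map3k7cl (0.81, adjusted p = 0.0656) and Mrtfa (0.35, adjusted p = 0.0777) of that list were not called. In co-treated against LPS, 2 of 18 genes of the pericyte list were lower, Ifitm1 (-1.16, adjusted p = 0.0296) and Mcam (-0.67, adjusted p = 0.0494), beside 1.68% of all genes tested. Of the smooth muscle list 2 of 18 were lower, Cald1 (-0.71, adjusted p = 0.02) and Smtn (-0.99, adjusted p = 0.0289). Without LPS 2, and in bulb-poor libraries, 0 of 18 in either list were called in that comparison.

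Of the 5 other PDGF genes 1 was higher with LPS, beside 8.47% of all genes tested. It was the ligand Pdgfb (0.67, SE 0.12, adjusted p = 0.000705), while its receptor Pdgfrb was not called. Of 14 Notch genes 3 were higher with LPS, beside the same 8.47%: Notch4 (1.04, adjusted p = 0.00353), the ligand Jag2 (0.49, adjusted p = 0.00544) and the target Hes5 (0.62, adjusted p = 0.00622). The ligand Jag1 was lower with co-treatment than with LPS alone (-0.78, adjusted p = 0.0361), beside 1.68% of all genes tested. The other channel subunits, Kcnj11 (0.12, adjusted p = 0.578) and Abcc8 (0.28, adjusted p = 0.304), were not called with LPS. In sedanolide against control Abcc8 (0.64, SE 0.16, adjusted p = 0.0306, edgeR) and Pdgfb (0.45, SE 0.12, adjusted p = 0.0401) were higher. The ligand gene Pdgfd was lower there (-0.78, SE 0.22, adjusted p = 0.045), beside 5.31% of all genes tested called in either direction. Far fewer genes were called in this comparison with the groups compared alone, or in bulb-poor or bulb-rich libraries. The values of Abcc8, Pdgfb and Pdgfd in those fits are not given here. Of 11 angiopoietin and TGF-beta genes 6 were higher in LPS against control, beside 8.47% of all genes tested. Tgfbr2 (1.20), Tgfb1 (1.29) and Eng (1.55) had the smallest p in that comparison. In sedanolide against control none of the 11 was higher and 1 was lower.

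Genes of neighbouring cell types were measured beside these, and 8.47% of all genes tested were called higher with LPS. All 12 endothelial markers were higher with LPS, with a median log2 change of 0.99, among them Cldn5 (0.99, adjusted p = 3.28e-06), a tight junction protein. With co-treatment 4 of the 12 were lower than with LPS alone, beside 1.68% of all genes tested. In LPS against control, 11 of the 12 were called higher with upper-quartile factors, with length and GC offsets or without LPS 2. In bulb-poor libraries, where fewer genes were called over all genes tested as well, 7 of the 12 were higher. The summed level of the endothelial markers was 473 to 768 CPM in controls and 1001 to 1272 CPM in LPS libraries, without overlap. The sum of the 7 pericyte genes was 303 to 449 and 522 to 587 CPM, with Rgs5 its largest part by group mean (170 and 277 CPM). The sum of the 18 other pericyte genes overlapped, at 126 to 258 CPM in controls (median 194) and 147 to 296 CPM in LPS libraries (median 190). Of 6 microglia markers 4 were higher with LPS, among them Csf1r (1.41, adjusted p = 1.18e-06) and Cx3cr1 (1.09, adjusted p = 6.13e-06). Of 8 oligodendrocyte precursor markers 1 was higher (Gpr17), and of 10 fibroblast and 7 astrocyte markers none was called in LPS against control. Fibroblast markers were lower for 2 of 10 in sedanolide against control (median log2 change -1.12) and 2 of 10 in co-treated against control (-1.11). Over all genes tested 2.11% and 4.69% were called lower there. In co-treated against LPS their median was -1.15, with none called. Their sum was 307 to 448 CPM in sedanolide libraries. Its part in the member values was not tested. Whether the endothelial values account for the pericyte values was not tested.

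**Figure D5:**
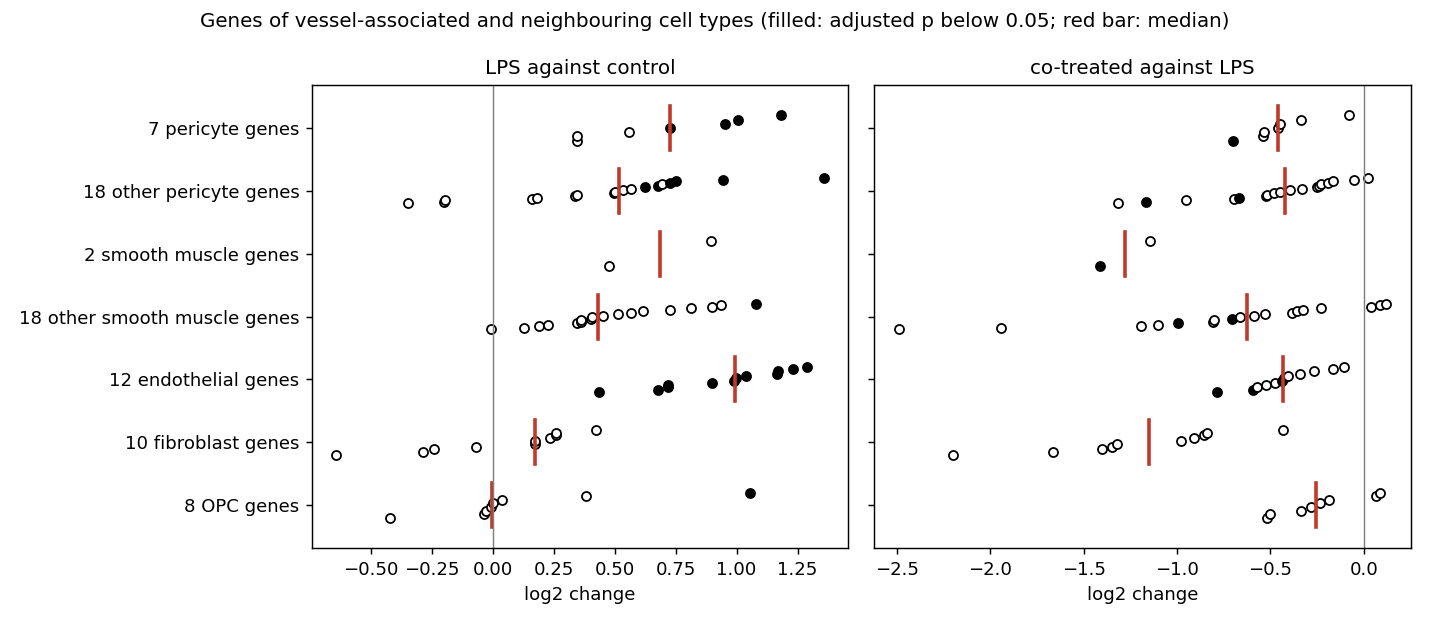
Log2 change of each tested gene (points, filled where the adjusted p was below 0.05) in fixed lists of vessel-associated and neighbouring cell types (rows, OPC standing for oligodendrocyte precursor cells), for LPS against control (left) and co-treated against LPS (right), with a red bar at each list's median. All 12 endothelial genes are filled on the left, and no fibroblast gene is filled in either panel.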

How the data were processed

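Poly(A) RNA of medial prefrontal cortex was extracted with TRIzol and made into stranded Illumina libraries, per the labels. The deposited table holds raw read counts per gene by the authors for 19 libraries, and 0 of its columns were left unmatched. Per the submitters' processing notes, fastp, HISAT2, StringTie, RSEM and DESeq2 were used, without versions. The deposited table is named for another counting tool, featureCounts, which is not among these, so the tool that made the counts is not settled. The counting settings, strand use and genome build are not given in the sources used here.

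Tests used edgeR 4.0.16 (R 4.3.3): TMM factors, the default filter by group (17757 genes left), the quasi-likelihood test with robust dispersion, and 1 model of all 19 libraries. P-values were two-sided and adjusted (Benjamini-Hochberg) across the genes tested, and called below 0.05. The SE is the size of the log2 change divided by the root of its F statistic. There were 6 comparisons and a bulb slope. Levels per kb used GENCODE M21 (GRCm38) exon lengths. The script was tested on simulated data. No pair of libraries held identical counts.

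The naming rule took all 10 members, of each list the 3 genes of smallest p with LPS and up to 3 called in co-treated against LPS, and the 5 genes most like each member set; not all genes it took are printed. One list, and a gene of another list, are not reported here. The sedanolide values of Abcc8, Pdgfb and Pdgfd were chosen after their values were seen. The members and the 18 lists were chosen with earlier results of these data known. Alternatives were other library factors and filters, DESeq2 1.42.0, a replicate block, offsets for length and GC content (known for 98.3% of genes tested), the groups compared alone, bulb covariates and subsets, and leaving out each library.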

Additional observations from a re-analysis of the deposited data

Results flagged for a closer look

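A library lay far from the others of its group, by the gap to its nearest neighbour over the group's range, in 4 of 40 combinations of gene and group, and chance alone flags about 1 in 20. LPS replicate 2 gave 3 of them: Acta2 at 169 CPM (ratio 0.76), Myh11 at 125 CPM (0.812) and, as the lowest of its group, Rgs5 at 220 CPM (0.71). Co-treated replicate 4 gave Pdgfrb at 34 CPM (0.728), in a group whose other 4 libraries lay between 29.9 and 31 CPM.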

How the results depend on the processing

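The counts of genes called were 4 for LPS against control, 0 for sedanolide against control, 2 for co-treated against LPS, 3 against sedanolide, 3 against control, 0 for the interaction and 2 for the bulb slope. Without 1 library each they ran from 4 to 6, 0 to 1, 0 to 4, 3 to 3, 2 to 3, 0 to 2 and 1 to 2. For co-treated against LPS the count was 1 with RLE factors, with upper-quartile factors, without the expression filter and with the bulb index, 4 with DESeq2 and 0 in bulb-poor libraries. For co-treated against control it was 1 with the linear bulb index and 0 in bulb-poor libraries. For the interaction it was 2 with DESeq2, 1 with the bulb index and 2 with the linear index. For the slope it was 1 with length and GC offsets and for bulb-rich against bulb-poor libraries, and 0 within either. The slope of Rgs5 turned to 0.1004 (adjusted p = 0.924) in bulb-poor libraries. The cause was not tested. Same-numbered libraries did not deviate together over all genes tested (median r -0.054 over 27 pairs, 5 above 0.1, and 1 of 19 libraries correlated best with its own number). This gave no sign of pairing by number. It cannot exclude a modest pairing, because bulb content also differed among same-numbered libraries. With the replicate block the count was 1 for co-treated against LPS (Myh11 -1.19, adjusted p = 0.0992) and 1 for the slope (Rgs5 -0.050, adjusted p = 0.0838), and no other call changed. Over all genes tested, LPS against control called 1938 genes, 1114 with the groups compared alone, 3433 with the linear index, 848 in bulb-poor and 761 in bulb-rich libraries. Sedanolide against control called 943, and 439 unfiltered, 1895 with DESeq2, 95 with the block, 271 with offsets, 19 with the groups alone, 8 in bulb-poor and 0 in bulb-rich libraries. Co-treated against LPS called 350, and 911 with DESeq2, 145 with the block, 544 with offsets, 723 with the groups alone, 107 with the bulb index and 35 in bulb-poor libraries. Co-treated against control called 1965, and 1244 unfiltered, 954 with the block, 1080 and 1110 with the bulb and linear index and 615 in bulb-poor libraries. The interaction called 104, and 441 with DESeq2, 32 with the block, 268 and 727 with the indices and 20 in bulb-poor libraries, and the slope 5559, but 0 within bulb-poor and 173 within bulb-rich libraries. The split of higher and lower calls moved from 1504 and 434 to 1359 and 610 with upper-quartile factors and 1268 and 802 with offsets for LPS, and from 568 and 375 to 340 and 568 with upper-quartile factors for sedanolide.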

Other observations

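Red blood cell transcripts were measured beside the vessel genes. The summed level of 5 erythroid markers was 192 to 295 CPM in controls and 2.35 to 180 CPM in LPS libraries, without overlap. Of all genes tested, 3.38% had LPS values that all lay below the controls. The erythroid sum was 28.5 to 94.3 CPM in co-treated libraries, also below every control, and 93.8 to 233 CPM in sedanolide libraries. Co-treated values all lay below the controls for 5.15% of all genes tested. Both shares count single genes, whereas the erythroid level is a sum of 5. Hba-a2, an alpha-globin gene with a near-identical copy, was lower with LPS (log2 change -1.95, SE 0.51, adjusted p = 0.0161, edgeR). It was lower in co-treated against control too (-2.00, SE 0.51, adjusted p = 0.0185). The other 4 markers were not called in either comparison. Over all genes tested, 2.44% and 4.69% were called lower in these 2 comparisons.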
